A study of Mus musculus with 4 samples.

Results

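Chemokines and their receptors were followed in the glomeruli, the filtering units of the kidney, of mice lacking guanylyl cyclase A (GC-A). The members were all genes whose single annotated symbol began with Ccl, Cxcl, Ccr or Cxcr and a number, which gave 46 of 18193 genes on the array: 18 CC ligands, 13 CXC ligands, 10 CC receptors and 5 CXC receptors. Each of 4 groups of male mice was represented by 1 Affymetrix mouse array of total glomerular RNA. In the order used below these were KO ALDO, WT ALDO, KO control and WT control, where KO stands for a systemic knockout of GC-A, the natriuretic peptide receptor that Npr1 encodes, and WT for wild type. A kidney had been removed from the mice of every group. ALDO mice were infused with aldosterone and ate a 6% salt diet for 3 weeks, and control mice were infused with 2% ethanol and ate a normal diet. The labels give neither the age and strain of the mice nor whether an array held RNA of 1 mouse or of several.

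Chemokines are small secreted proteins that draw leukocytes along a gradient. They are named for the spacing of their first cysteines, adjacent in the CC ligands and separated by another residue in the CXC ligands, and they signal through G protein-coupled receptors that are carried mostly by leukocytes. In the kidney they are made by resident glomerular and tubular cells as well as by immune cells, and Cxcl12 and Cxcl16 also have roles outside inflammation.

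The values were probe set intensities, which have no fixed unit and were set to a common average on every array before deposit. They were compared as log2(intensity + 16), which understates the change of dim genes. Because each group had a single array, no difference could be set against a replicate spread or tested, and every value below describes these 4 arrays. The number of arrays limits the precision. A gene was read when its mean over the 4 arrays was at or above the median of all genes, a log2 value of 8.04 or an intensity of about 247, called the reading level here. Of the 46 members 8 were read and 38 were too dim to read. Intensities of different probe sets do not compare the amounts of different RNAs, so differences are given only within a gene.

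The preparation held glomerular and tubular RNA. All 7 podocyte markers with a probe set, all 10 glomerular endothelial markers and all 7 mesangial markers were read, and so were all 10 proximal tubule markers. In this bulk RNA fewer cells of a type and less RNA per cell cannot be told apart. The probe set of Npr1 was dim, with intensities of 23.4 in KO ALDO, 60.5 in WT ALDO, 108 in KO control and 92.6 in WT control, and no source used here gives its place relative to the deleted part, so it did not check the labels. The log2 differences of 18 spiked-in control probe sets, which carry technical spread and none between mice, had a standard deviation between 0.06 and 0.12 in the 4 pairs of arrays. All 18 were lower on the ALDO array than on the control array of the same genotype, with median differences of -0.11 in KO and -0.27 in WT.

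The upstream sequences of 5 of the genes read are shown because these genes carry the patterns described below. Cxcl1, Cxcl10 and Ccl28 were higher in KO glomeruli, Cxcl12 was lower in them in both of its bright probe sets, and Cxcl13 was lower under ALDO. Each is the 250 bases before the annotated start of the gene in RefSeq, mouse build GRCm38.p6, written 5′ to 3′ on the strand of the gene. Capitals mark matches to the NF-κB consensus or to GAAANNGAA, the core of the interferon-stimulated response element, searched on both strands. The regions are chr5:90890995-90891244 (plus strand) for Cxcl1, chr5:92348890-92349139 (minus strand) for Cxcl10, chr13:119623569-119623818 (plus strand) for Ccl28, chr6:117168285-117168534 (plus strand) for Cxcl12 and chr5:95956689-95956938 (plus strand) for Cxcl13.
Cxcl1: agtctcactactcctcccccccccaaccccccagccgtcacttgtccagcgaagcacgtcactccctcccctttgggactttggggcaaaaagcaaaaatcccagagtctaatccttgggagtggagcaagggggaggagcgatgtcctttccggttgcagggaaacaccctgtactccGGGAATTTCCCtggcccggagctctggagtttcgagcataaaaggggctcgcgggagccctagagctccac
Cxcl10: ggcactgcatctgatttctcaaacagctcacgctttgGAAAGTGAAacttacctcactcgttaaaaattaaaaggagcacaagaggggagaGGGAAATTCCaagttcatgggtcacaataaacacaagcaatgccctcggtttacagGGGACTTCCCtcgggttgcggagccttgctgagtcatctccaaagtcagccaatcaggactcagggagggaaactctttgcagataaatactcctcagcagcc
Ccl28: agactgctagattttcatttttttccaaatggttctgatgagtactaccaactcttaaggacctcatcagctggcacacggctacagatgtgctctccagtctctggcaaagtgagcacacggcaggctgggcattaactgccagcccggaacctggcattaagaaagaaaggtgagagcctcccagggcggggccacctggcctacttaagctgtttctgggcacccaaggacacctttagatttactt
Cxcl12: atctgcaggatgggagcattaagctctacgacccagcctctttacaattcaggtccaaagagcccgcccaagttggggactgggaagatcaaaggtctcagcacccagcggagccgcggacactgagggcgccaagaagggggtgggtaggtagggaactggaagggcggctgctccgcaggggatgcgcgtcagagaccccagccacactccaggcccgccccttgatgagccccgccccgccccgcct
Cxcl13: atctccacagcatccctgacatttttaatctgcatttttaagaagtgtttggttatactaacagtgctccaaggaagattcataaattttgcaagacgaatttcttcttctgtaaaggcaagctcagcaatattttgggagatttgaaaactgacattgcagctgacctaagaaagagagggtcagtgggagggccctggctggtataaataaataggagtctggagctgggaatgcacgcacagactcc
Cxcl1 held a pair of NF-κB matches that overlap on opposite strands, at -71 to -62 and -70 to -61 from the start. Cxcl10 held NF-κB matches at -159 to -150 and -103 to -94 and a match to GAAANNGAA at -213 to -205. Ccl28, Cxcl12 and Cxcl13 held no match to either motif in this window. An NF-κB match was found in 3.75% of the 27025 promoters searched and in 7 of the 33 members with a promoter sequence. GAAANNGAA was found in 7.16% of all promoters and in 6 of the 33. Among the 7 members read with a promoter sequence, 2 held an NF-κB match and 1 a GAAANNGAA match. Ccl6 and Ccl27a, read but not shown, held neither. A match describes the letters and does not show that a factor binds there.

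**Figure D1:**
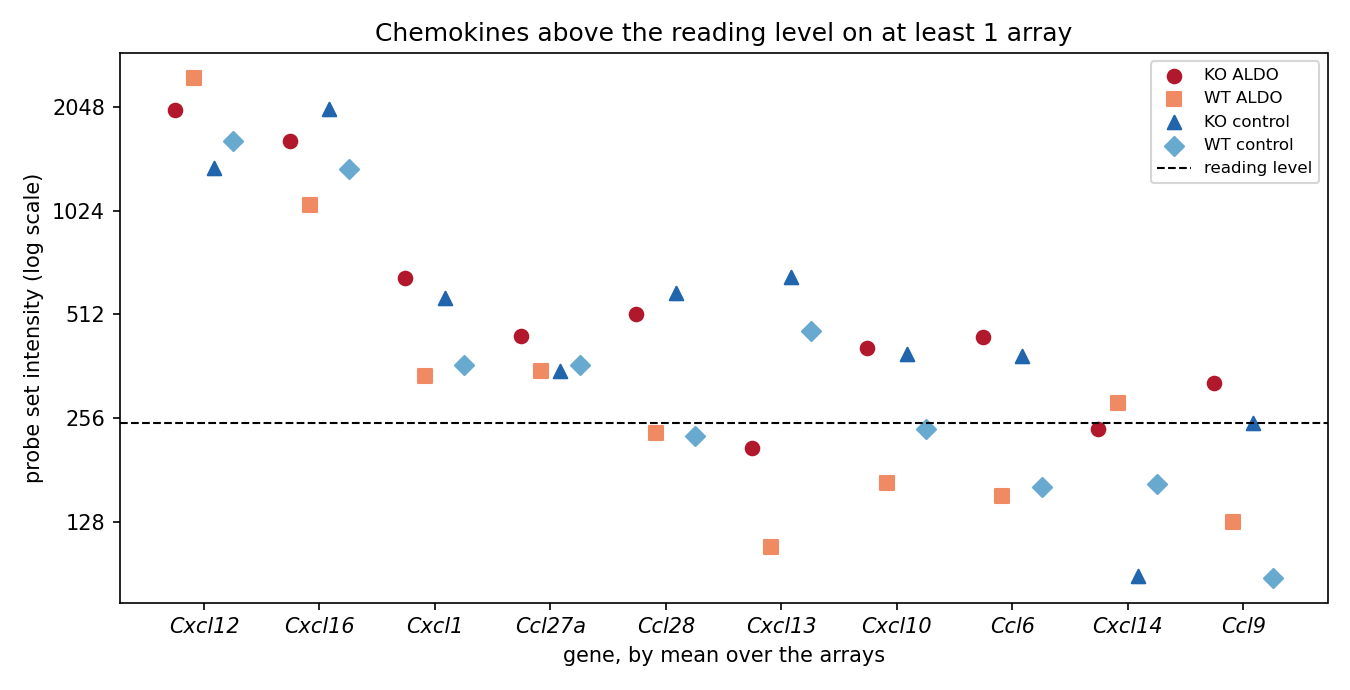
Probe set intensity (log scale) on each of the 4 arrays for the 8 members read and for Cxcl14 and Ccl9, which passed the reading level (dashed line, 247) on some arrays only, in order of their mean; each point is 1 array. Both KO arrays lie above both WT arrays for Cxcl16, Cxcl1, Ccl28, Cxcl10, Ccl6 and Ccl9, while Cxcl12 and Cxcl14 lie higher under ALDO and Cxcl13 lies lower under it.

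The genotypes were compared under either treatment to see which chemokines differ in glomeruli without GC-A. In KO glomeruli 5 chemokines, Cxcl16, Cxcl1, Ccl28, Cxcl10 and Ccl6, were brighter on both KO arrays than on both WT arrays. The share of all genes read with this separation was not counted, so the 5 are a description. Cxcl12 was dimmer in KO under each treatment in its bright probe sets. The mean of all 3 Cxcl12 probe sets gave -0.54 under ALDO and 0.08 under control treatment. The CC ligands Ccl6 and Ccl28 differed by 2-fold or more under both treatments, and Cxcl10 under ALDO. Among the members read, 3 of 8 were higher by 2-fold or more in KO ALDO than in WT ALDO (Ccl6, Cxcl10 and Ccl28), against 1.26% of the 9097 genes read, and 0 were lower by as much, against 0.352%. In KO control 2 of 8 were higher by 2-fold or more than in WT control (Ccl6 and Ccl28), against 0.967% of genes read, and 0 were lower, against 0.176%. With the mean of all probe sets of a gene this count was 0, with Ccl28 at 0.92 and Ccl6 at 0.77. Ccl6, Cxcl10 and Ccl28 were above the reading level on the KO arrays alone, so they passed the filter through the group where they were high and their counts are a description. Of the 4 members above that level on all arrays, Cxcl12, Cxcl16, Cxcl1 and Ccl27a, 0 passed 2-fold in any comparison. The median log2 difference of the 8 was 0.88 under ALDO and 0.60 under control treatment, beside medians of 0.01 and 0.00 for all genes read. Above 0 were 7 of 8 members under ALDO, against 51.3% of genes read, and 6 of 8 under control treatment, against 49.7%.

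Ccl6, a CC chemokine found in rodents and made by macrophages and other myeloid cells, had intensities of 440 in KO ALDO, 152 in WT ALDO, 388 in KO control and 162 in WT control. The KO arrays did not overlap with the WT arrays, which lay below the reading level. The log2 difference between KO and WT was 1.45 under ALDO and 1.18 under control treatment. A second probe set of Ccl6, dim on all arrays, gave 0.87 and 0.36. Its neighbour on the chromosome, Ccl9, another ligand of the receptor Ccr1, had a mean of 7.58, below the reading level of 8.04, but passed that level on both KO arrays. Ccl9 had intensities of 324 in KO ALDO, 128 in WT ALDO, 247 in KO control and 88.2 in WT control. Its differences of 1.24 under ALDO and 1.34 under control treatment had the sign of those of Ccl6, and its second probe set gave 1.09 and 0.92.

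Ccl28, a chemokine of mucosal epithelia that attracts cells bearing Ccr10 and Ccr3, had 512 in KO ALDO, 232 in WT ALDO, 589 in KO control and 227 in WT control. Both WT arrays lay just below the reading level and both KO arrays above it. The difference was 1.09 under ALDO and 1.31 under control treatment. The further 2 probe sets of Ccl28 were dim on every array and had the same sign, with 0.44 and 0.26 under ALDO and 0.96 and 0.48 under control treatment. Ccl27a, its relative in sequence and receptor use, had 443 in KO ALDO, 350 in WT ALDO, 351 in KO control and 364 in WT control, with differences of 0.33 and -0.05. Near-identical copies of Ccl27a exist in the mouse genome, so its signal may include theirs.

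Cxcl1, a ligand of Cxcr2 that attracts neutrophils, had 652 in KO ALDO, 340 in WT ALDO, 572 in KO control and 365 in WT control. The difference was 0.91 under ALDO and 0.63 under control treatment, short of 2-fold in both. All 3 probe sets of Cxcl1 were higher in KO. The dimmest of them, with 383, 81.4, 247 and 90.9 on the arrays in the same order, gave 2.03 under ALDO and 1.30 under control treatment, so the size of the difference depended on the probe set. The other neutrophil-attracting CXC ligands, Cxcl2, Cxcl3, Cxcl5 and Cxcl15, were too dim to read.

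Cxcl10, which interferon induces and which attracts T cells and natural killer cells through Cxcr3, had 410 in KO ALDO, 166 in WT ALDO, 393 in KO control and 238 in WT control. The difference was 1.23 under ALDO and 0.69 under control treatment. Both WT arrays were below the reading level, WT ALDO furthest. Cxcl9 and Cxcl11, which share the receptor, were too dim to read. Cxcl11 had 227, 57.9, 77.5 and 34.1 in KO ALDO, WT ALDO, KO control and WT control, while Cxcl9 was brightest in WT ALDO, with 76.2 against 32.0 in KO ALDO.

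Cxcl16, a membrane-bound chemokine that also acts as a scavenger receptor and is the ligand of Cxcr6, had the next-highest mean intensity after Cxcl12. It had 1625 in KO ALDO, 1066 in WT ALDO, 2017 in KO control and 1354 in WT control. The difference was 0.60 under ALDO and 0.57 under control treatment. Its second probe set, bright on all 4 arrays, gave 0.21 and 0.50. The receptor Cxcr6 was too dim to read.

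Cxcl13, the attractant of B cells through Cxcr5, had 209 in KO ALDO, 108 in WT ALDO, 657 in KO control and 459 in WT control. Within each treatment KO was higher, by 0.86 under ALDO and 0.50 under control treatment, and a second probe set gave 0.74 and 0.47. The treatments did not overlap, so the KO and WT arrays did.

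Cxcl12, which signals through Cxcr4 and is taken up by the scavenging receptor Ackr3, had the highest mean intensity and was the only one of the 8 below 0 under both treatments. It had 2011 in KO ALDO, 2484 in WT ALDO, 1358 in KO control and 1625 in WT control, a difference of -0.30 under ALDO and -0.26 under control treatment. A second bright probe set gave -0.16 and -0.34, while the dimmest, below the reading level on all arrays, gave -1.15 and 0.84. Ackr3, outside the symbol rule, had 2594, 2438, 2847 and 3192 on the arrays in that order, with differences of 0.09 and -0.16. Cxcr4 was too dim to read, with 122 in KO ALDO, 58.4 in WT ALDO, 147 in KO control and 51.7 in WT control.

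**Figure D2:**
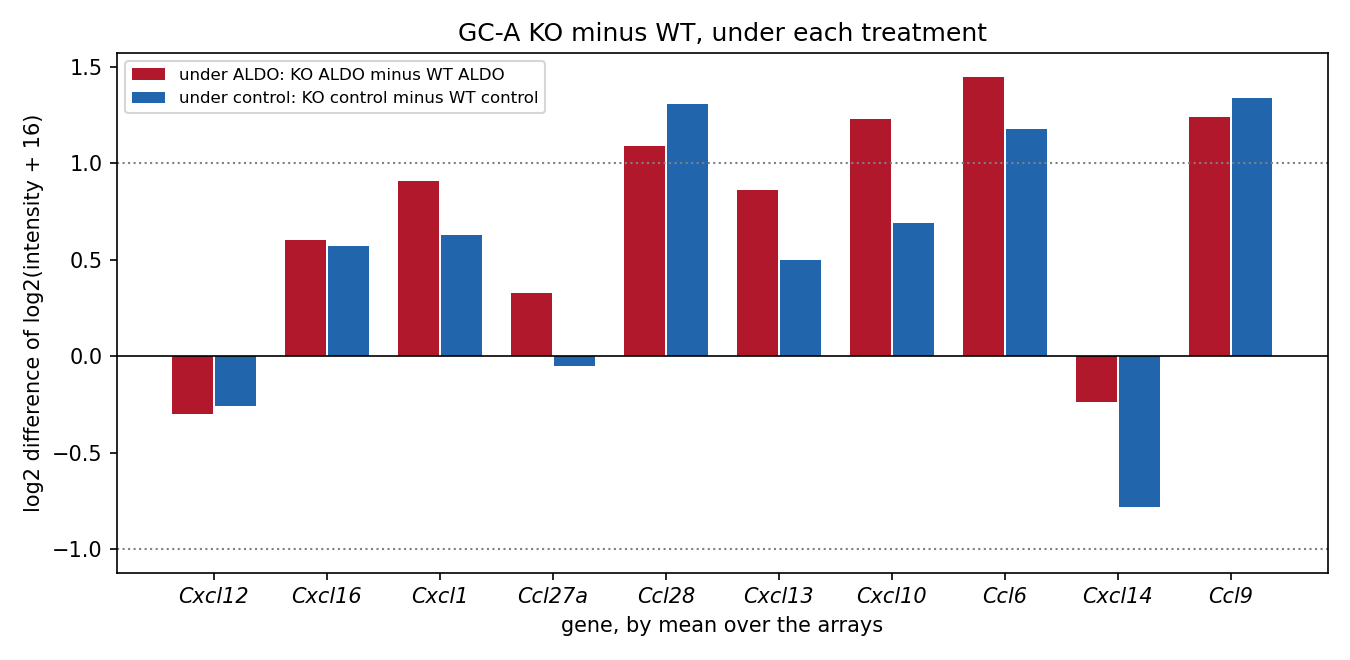
Log2 difference of KO minus WT under ALDO (left bar of each pair) and under control treatment (right bar) for the 8 members read and for Cxcl14 and Ccl9; each bar is the difference between 2 arrays and has no error, and dotted lines mark 2-fold. Ccl28, Ccl6 and Ccl9 pass 2-fold under both treatments, Cxcl10 under ALDO with 1.23, and Cxcl12 and Cxcl14 lie below 0 in both.

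**Figure D3:**
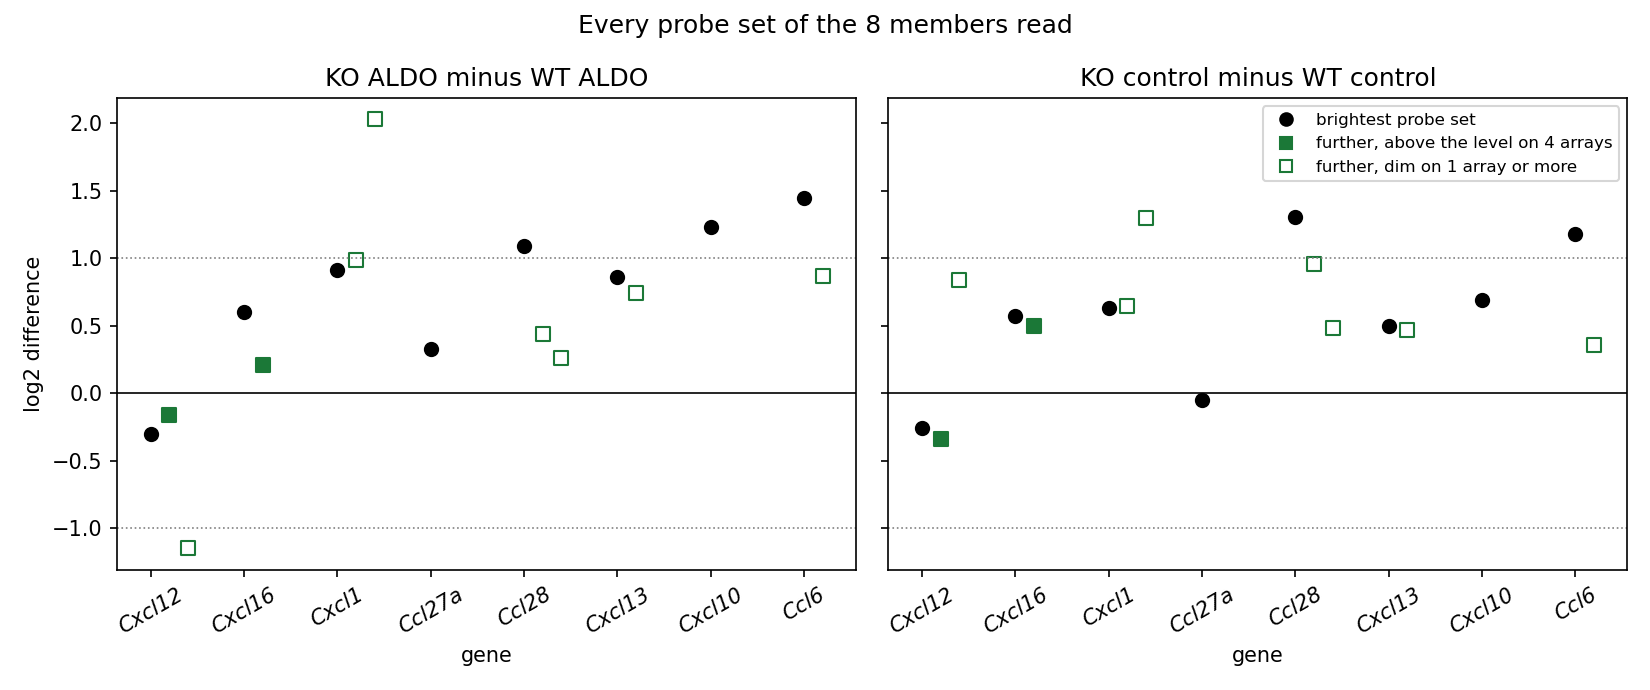
Log2 difference of KO ALDO minus WT ALDO (left panel) and of KO control minus WT control (right panel) for every probe set of the 8 members read; circles are the brightest probe set, squares the further ones, open where dim on an array. All 9 further probe sets have the sign of the brightest one under ALDO, and 8 of 9 do under control treatment, the exception being a dim one of Cxcl12 at 0.84.

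Related genes outside the symbol rule were read for 9 of the 15 with a probe set. In KO ALDO against WT ALDO all 9 were above 0 (median 0.54), beside 51.3% of all genes read. In KO control against WT control 6 were (median 0.19), beside 49.7%. Only Pf4 passed 2-fold, in both comparisons, where 1.26% and 0.967% of genes read were higher by as much. Pf4, a CXC chemokine of platelets and macrophages, had 457 in KO ALDO, 215 in WT ALDO, 506 in KO control and 212 in WT control, with differences of 1.04 and 1.20. Pf4 was above the reading level on the KO arrays alone, so it passed the filter where it was high and its count is a description. Cx3cl1, the membrane-anchored chemokine fractalkine, had 1486, 970, 1128 and 823 in that order, with differences of 0.61 and 0.45. Its receptor Cx3cr1 was too dim to read. Ccrl2, an atypical receptor that binds chemerin, had 0.55 and 0.14.

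Genes of the pathways that induce chemokine transcription, with inhibitors such as Nfkbia and Tnfaip3 among them, were read for 15 of 28. Of these, 14 were above 0 in KO ALDO against WT ALDO with a median of 0.29, beside 51.3% of all genes read, and 2 passed 2-fold, Nfkbiz at 1.12 and Irf7 at 1.04, beside 1.26%. In KO control against WT control 12 were above 0 with a median of 0.15, beside 49.7%, and Irf7 alone passed 2-fold, also at 1.04, beside 0.967%. Nfkbiz, a nuclear cofactor of NF-κB, had 839 in KO ALDO, 377 in WT ALDO, 703 in KO control and 447 in WT control. Irf7, a transcription factor of the interferon response, had 537, 253, 500 and 235, the last of these below the reading level. The cytokine genes Tnf, Il1b, Il6 and Ifng were too dim to read. Genes that carry the signal of chemokine receptors inside the cell or damp it, taken as a single list, were read for 11 of 25. None of these genes passed 2-fold, with medians of 0.32 under ALDO and 0.06 under control treatment. Arrb2, an arrestin that uncouples and internalises the receptors, was the highest of them under control treatment (0.87), with 405 in KO ALDO, 270 in WT ALDO, 451 in KO control and 239 in WT control.

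The markers read of macrophages were all higher in KO. Of those read from the dendritic cell list, 5 of 5 were higher under ALDO and 4 of 5 under control treatment. Markers of other leukocytes were mostly too dim to read. Those read, S100a8 and Zap70, were higher in KO by 3.44 and 1.13 under ALDO and by 0.26 and 0.30 under control treatment. All 9 macrophage and monocyte markers read were above 0 in KO under each treatment, 6 of them by 2-fold or more in each. Their medians were 1.28 under ALDO and 1.35 under control treatment. Among the 6, C1qa (243) and C1qb (145) were below the reading level on the WT control array. Of all genes read, 51.3% were above 0 and 1.26% higher by 2-fold under ALDO, and 49.7% and 0.967% under control treatment. The intensities of all 18 with a probe set summed to 14328 in KO ALDO, 6440 in WT ALDO, 12180 in KO control and 6284 in WT control, and none was listed at 0. Of the 18, 17 were above 0 under ALDO, Itgam being lower (-0.35), and all 18 were above 0 under control treatment. Cd68 and Adgre1 were singled out here although their means lay below the reading level. They were higher in KO by 1.33 and 1.26 under ALDO and by 0.53 and 0.99 under control treatment. Neutrophil markers were read for 1 of 10, and their sum was 1537 in KO ALDO, 358 in WT ALDO, 1381 in KO control and 1114 in WT control. Of the 10, 7 were above 0 under ALDO and 6 under control treatment. Most of the gap between the sums under ALDO came from S100a8, with 533 in KO ALDO and 34.5 in WT ALDO, and S100a9, with 453 and 4.50. Mpo (-1.03), Mmp9 (-1.47) and Camp (-0.12) were lower in KO ALDO. T cell and natural killer cell markers were read for 1 of 13 (Zap70), and 7 of the 13 were above 0 under ALDO and 12 under control treatment. B cell and plasma cell markers were read for 0 of 9, and 4 of the 9 were above 0 under ALDO and 3 under control treatment. Among all genes below the reading level, 59.4% were above 0 under ALDO and 56.5% under control treatment. Dendritic cell markers, 5 of them read, had medians of 0.85 under ALDO and 0.83 under control treatment and summed to 13379 in KO ALDO, 7397 in WT ALDO, 12048 in KO control and 6524 in WT control. Those read were the MHC class II genes H2-Aa, H2-Ab1 and H2-Eb1, with Cd74 and Zbtb46. H2-Aa alone made up 6216 of the sum in KO ALDO. Over the 11 with a probe set, 10 were above 0 under ALDO and 9 under control treatment. The exceptions were Flt3 (-1.17) under ALDO, and Zbtb46 (-0.22) and Xcr1 (-0.70) under control treatment. The sum of the glomerular endothelial markers was also higher in KO, with 39312, 27134, 34963 and 26245 in that order, while that of the proximal tubule markers was lower, with 189251, 212544, 207606 and 228647. The part of these cells in the chemokine differences was not tested.

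Aldosterone with salt was compared with the control treatment within each genotype, on the same 4 arrays as the genotype comparisons. Cxcl13 stood out, being lower under ALDO by more than 2-fold in KO and in WT, and Cxcl12 was higher under ALDO in both genotypes in its bright probe sets. The other 6 members read differed by at most 0.48 in either direction. Among the 8 read, 1 was lower by 2-fold or more in KO ALDO than in KO control (Cxcl13), against 0.132% of genes read, and 0 were higher, against 0.572%. In WT ALDO against WT control 1 was lower (Cxcl13), against 0.352%, and 0 were higher, against 0.330%. Cxcl13 was above the reading level on the control arrays alone, so it passed the filter where it was high and its counts are a description. The medians of the 8 were 0.12 in KO and -0.09 in WT, beside 0.01 and 0.01 for all genes read.

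Cxcl13 had 209 in KO ALDO against 657 in KO control, a log2 difference of -1.58. It had 108 in WT ALDO against 459 in WT control, a difference of -1.94. Both ALDO arrays lay below the reading level and both control arrays above it. The second probe set gave -1.41 in KO and -1.68 in WT, with 201, 114, 562 and 401 in KO ALDO, WT ALDO, KO control and WT control. The 9 B cell and plasma cell markers with a probe set, all too dim to read, summed to 580 in KO ALDO, 618 in WT ALDO, 612 in KO control and 658 in WT control.

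The brightest probe set of Cxcl12 was higher under ALDO by 0.56 in KO and by 0.61 in WT, and its second bright probe set gave 0.90 and 0.71. The dimmest gave -1.27 in KO and 0.71 in WT, and the mean of all 3 was 0.06 in KO and 0.68 in WT. Cxcl16 was lower under ALDO by a similar amount in the brightest probe set, -0.31 in KO and -0.34 in WT, but its second probe set gave -0.28 and 0.01. The -0.34 of Cxcl16 and the -0.48 of Cxcl10 in WT lay within the range of the spiked-in controls on these arrays, -0.50 to -0.04. Cxcl14, a chemokine of epithelia, was below the reading level by its mean and passed it on the WT ALDO array. Cxcl14 had 238 in KO ALDO, 284 in WT ALDO, 89.4 in KO control and 165 in WT control, with differences of 1.27 in KO and 0.73 in WT, but a second, dimmer probe set gave 0.15 and 0.08. Between genotypes Cxcl14 had -0.24 under ALDO and -0.78 under control treatment in its brightest probe set, while the dimmer one had the opposite sign, with 0.73 and 0.65. Ccl9 had 0.37 in KO and 0.47 in WT. Cxcl1, Ccl28, Ccl27a, Cxcl10 and Ccl6 had differences of opposite sign in the 2 genotypes, the widest being Cxcl10 with 0.06 in KO and -0.48 in WT.

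**Figure D4:**
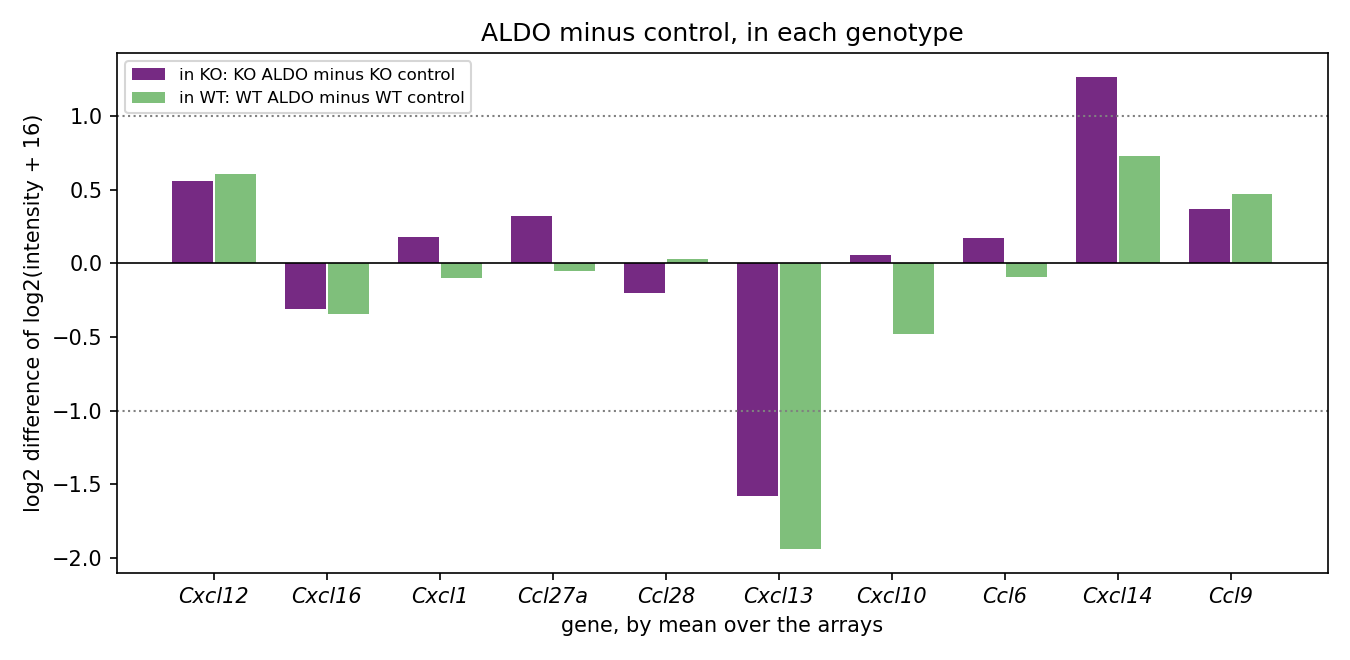
Log2 difference of ALDO minus control in KO (left bar of each pair) and in WT (right bar) for the 8 members read and for Cxcl14 and Ccl9; each bar is the difference between 2 arrays and has no error, and dotted lines mark 2-fold. Cxcl13 is lower in both genotypes (-1.58 and -1.94), Cxcl12 is higher in both (0.56 and 0.61), and Cxcl14 passes 2-fold in KO with 1.27.

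The list of macrophage markers had 0 of 9 members past 2-fold in either ALDO comparison, with medians of 0.17 in KO and 0.26 in WT. Smooth muscle markers, of which 3 of 4 were read, had medians of 1.19 in KO and 0.73 in WT. Their sum was 9358 in KO ALDO, 4961 in WT ALDO, 4003 in KO control and 3178 in WT control. Podocyte markers, all 7 read, had medians of 0.27 in KO and 0.10 in WT, with 2 past 2-fold in KO and 0 in WT. They summed to 28024, 25814, 21371 and 22889 in the same order. Glomerular endothelial markers had medians of 0.38 in KO and 0.25 in WT, and mesangial markers 0.19 and 0.30. The part of these cells in the values of Cxcl12 and Cxcl13 was not tested.

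The genotype difference under ALDO minus that under control treatment showed whether the KO arrays stood further from the WT arrays after aldosterone and salt. Of the 8 members read 6 were above 0, against 50.6% of genes read, with a median of 0.27 beside 0.00 for all genes read. For the same contrast the spiked-in controls had a median of 0.13 and ran from -0.08 to 0.35. That range is of single probe sets, so it does not place the median of the members. Of the single members, Cxcl10 (0.54) and Ccl27a (0.38) lay above it and Ccl28 (-0.23) below it. None passed 2-fold in either direction, against 0.594% of genes read above and 0.330% below. Cxcl10 had the largest value, 0.54, and Ccl28 the lowest, -0.23. Without replicates none of these was tested.

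The 38 members too dim to read had means between 4.23 and 7.61 on the log2 scale. They held all 15 receptors, Ccr1, Ccr1l1, Ccr2, Ccr3, Ccr4, Ccr6, Ccr7, Ccr8, Ccr9, Ccr10, Cxcr2, Cxcr3, Cxcr4, Cxcr5 and Cxcr6, whose intensities ran between 1.40 and 158. No receptor passed the reading level on any array, those of the ligands read included. The 15 CC ligands among them were Ccl1, Ccl2, Ccl3, Ccl4, Ccl5, Ccl7, Ccl8, Ccl9, Ccl11, Ccl12, Ccl17, Ccl20, Ccl22, Ccl24 and Ccl25, and the 8 CXC ligands were Cxcl2, Cxcl3, Cxcl5, Cxcl9, Cxcl11, Cxcl14, Cxcl15 and Cxcl17. Closest to the reading level were Cxcl14 (7.61) and Ccl9 (7.58) below it and Ccl6 (8.09) above it.

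**Figure D5:**
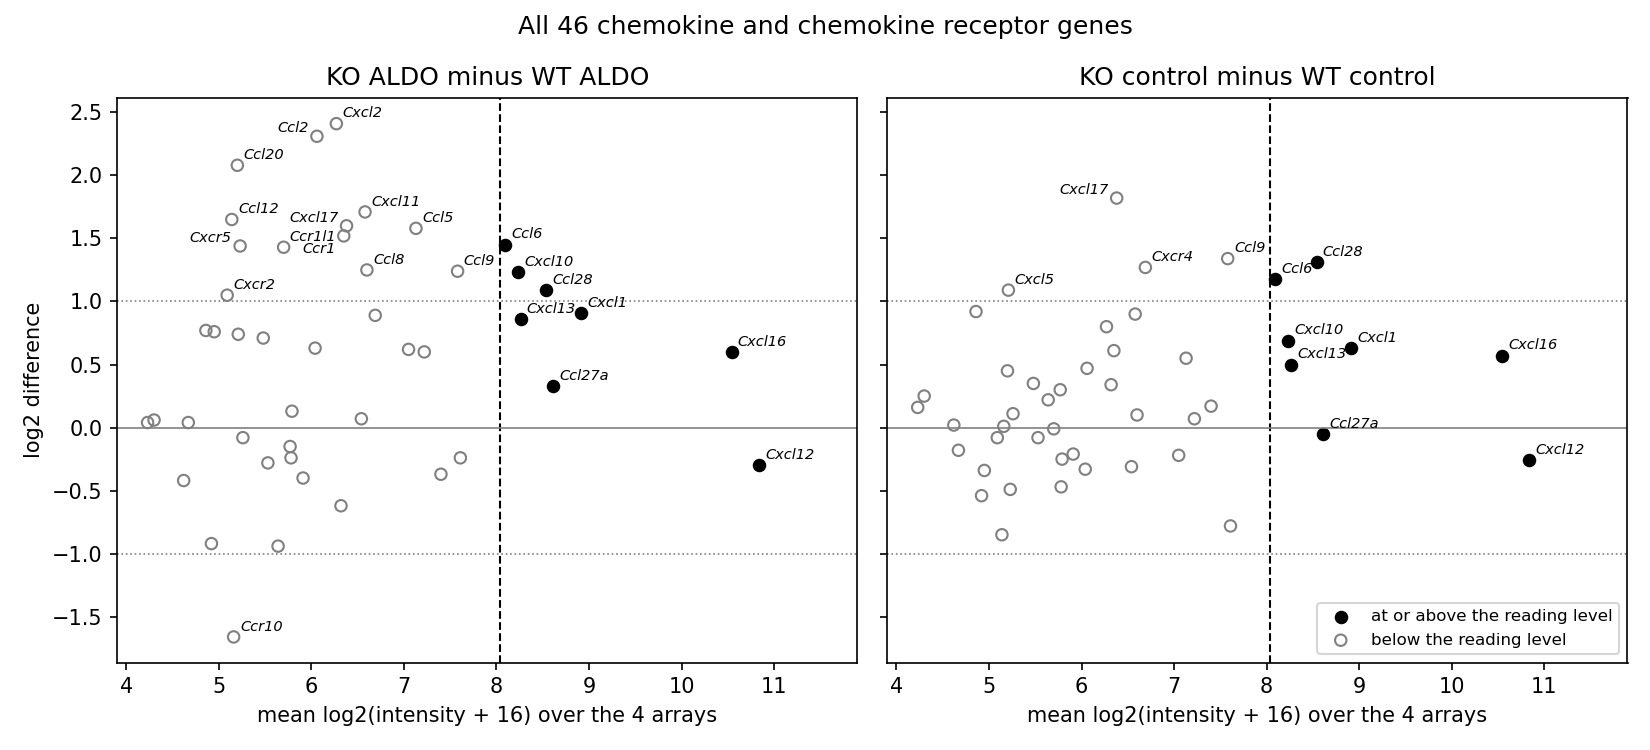
Mean log2(intensity + 16) over the 4 arrays (horizontal) and log2 difference (vertical) of KO ALDO minus WT ALDO (left panel) and KO control minus WT control (right panel) for all 46 members; filled points are the 8 read, open points the 38 dim ones, the dashed line is the reading level of 8.04 and dotted lines mark 2-fold. Names are given to the members read and to those past 2-fold, of which 13 dim ones are higher under ALDO and 4 under control treatment.

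Single values of these genes are uncertain, and they are given mainly as counts beside the same count over dim genes. In KO ALDO against WT ALDO 13 of the 38 were higher by 2-fold or more, against 8.18% of the 9096 genes below the reading level, and 1 was lower (Ccr10), against 4.32%. The 13 were Cxcl2, Ccl2, Ccl20, Cxcl11, Ccl12, Cxcl17, Ccl5, Ccr1, Cxcr5, Ccr1l1, Ccl8, Ccl9 and Cxcr2, named after their values were seen. WT ALDO was the dimmest array for 18 of the 38, and for 27.6% of dim genes. With a pseudocount of 64 the count was 6, against 0.967% of dim genes. In KO control against WT control 4 were higher (Cxcl17, Ccl9, Cxcr4 and Cxcl5), against 7.92%, and 0 were lower, against 4.75%. That is a share close to the background.

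Of the 13, Cxcl2, a neutrophil attractant like its neighbour Cxcl1, had the widest difference, 2.41, with 196 in KO ALDO, 23.8 in WT ALDO, 69.5 in KO control and 33.1 in WT control. Ccl2, the main attractant of monocytes through Ccr2, had 149, 17.2, 55.0 and 35.1 in that order, a difference of 2.31 under ALDO and 0.47 under control treatment. Ccl5, an attractant of T cells and monocytes, had 214, 60.6, 164 and 107, with 1.58 and 0.55. The KO ALDO array was the brightest for each of these, which were picked after their values were seen, and none of them reached 247 on any array. Among the 13, KO ALDO was not the brightest array for Ccl8, Cxcl17, Ccr1l1 and Cxcr5.

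Within each genotype the dim members gave 6 of 38 higher by 2-fold or more in KO ALDO than in KO control (Ccl20, Cxcl11, Cxcl2, Ccl12, Cxcl14 and Ccl2), against 7.09% of dim genes, and 0 lower, against 4.46%. In WT ALDO against WT control 2 were higher (Ccr10 and Cxcl9), against 6.48%, and 4 lower (Ccr1l1, Cxcr5, Ccl12 and Ccl8), against 4.83%. With a pseudocount of 64 the first count was 1, against 0.517% of dim genes. The second pair was 0 higher, against 0.396%, and 0 lower, against 0.242%. For the genotype difference under ALDO minus that under control treatment 10 of the 38 were above 2-fold, against 11.1%, and 2 below, against 9.96%. The comparisons of KO ALDO with WT ALDO and with KO control share an array, so their counts are not separate observations.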

How the data were processed

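Per the submitters' processing notes the values came from Affymetrix Expression Console; no source used here gives the algorithm, version, background correction or detection calls. The deposited table held linear probe set intensity values of 45101 probe sets on 4 arrays. The mean without the highest and lowest 2% was 500 on every array, so the authors had scaled the arrays before deposit, so a shift shared by all genes would not show. Scanner files were not used here.

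Genes were named from the annotation of the array: 34945 probe sets had 1 symbol and were used, 932 had several, 9160 were not listed and 64 were controls. Of those with several symbols, 4 include a gene that would fit the rule and were left out. The brightest probe set by mean log2(intensity + 16) stood for its gene. All 46 members were found in the RefSeq gene table, used for names and neighbours only. The first listed promoter of a gene was searched. Listed genes with no probe set of a single symbol were not analysed here. Members, gene lists and comparisons were chosen with earlier results of these data known. Members at or above the reading level are named with all values, dimmer ones that pass it on an array likewise, and the rest mainly by count and range. Of the rest, those past 2-fold between a pair of arrays are named. Values of Cxcl2, Ccl2, Ccl5, Cxcl9, Cxcl11 and Cxcr4 are also given, although none of these passed the level on any array. The steps were run in Python 3.11.15 with pandas 2.3.3 and tested on simulated data. With 1 array per group no p-value was computed. Alternatives were pseudocounts of 1 and 64, quantile normalization, centring on the median, the mean of all probe sets, no filter, the brightest 25% of genes, and genes above the level on at least 1 array. The next-brightest probe set and the counts of dim members were added after seeing the data.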

Additional observations from a re-analysis of the deposited data

Results flagged for a closer look

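Of the 8 members read, some differences had opposite signs in the compared pairs of arrays; with 1 array per group none of these contrasts was tested. For the genotype difference, Ccl27a had 0.33 under ALDO and -0.05 under control treatment, 0.38 apart. For the ALDO difference, Ccl27a had 0.32 in KO and -0.05 in WT, also 0.38 apart. Cxcl10 had 0.06 in KO and -0.48 in WT, 0.54 apart. Cxcl1 had 0.18 in KO and -0.10 in WT, 0.28 apart, and Ccl6 0.17 and -0.09, 0.26 apart. Ccl28 had -0.20 in KO and 0.03 in WT, a difference of -0.23. With the mean of all probe sets the WT values of Ccl28 and Cxcl1 were -0.19 and 0.03, of the same sign as in KO.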

How the results depend on the processing

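Counts at 2-fold or more (either direction) were taken as kept within 1.5 times, and medians as kept when they moved by less than the standard deviation of the spiked-in controls, a technical spread only. Without a low-signal filter (46 members) the counts were 17 in KO ALDO against WT ALDO, 6 in KO control against WT control, 7 in KO ALDO against KO control, 7 in WT ALDO against WT control and 12 for the difference of the genotype differences, with genotype medians of 0.67 and 0.16. In that order 14, 4, 6, 6 and 12 of these were dim members. The shares of all dim genes stand beside the dim counts above, and the counts without a filter are a description. Among the brightest 25% of genes only Cxcl12 and Cxcl16 remained, all 4 pair counts were 0, and medians were 0.15 in KO ALDO against WT ALDO, 0.16 in KO control against WT control, 0.13 in WT ALDO against WT control and -0.01 for the difference. With genes above the level on at least 1 array the count in KO ALDO against KO control was 2 and the median 0.18. The mean of all probe sets gave genotype medians of 0.60 under ALDO and 0.51 under control treatment, where the count was 0, with Ccl28 at 0.92 and Ccl6 at 0.77. Under ALDO it gave Cxcl1 1.31 and Ccl28 0.60. The genotype median under ALDO was 0.74 with a pseudocount of 64 and 0.77 with quantile normalization, where Ccl28 was at 0.96 and 0.98. Of 250 single-gene values under the planned settings, 242 kept their side of 2-fold, 7 fell below it, 1 passed it, and 0 past 2-fold changed sign. Below 2-fold, 6 changed sign, among them Cxcl12 in KO control against WT control (0.08 with the mean of all probe sets), and the same setting took Cxcl12 in KO ALDO against KO control to 0.06. With the next-brightest probe set 33 of 40 kept their side, 8 changed sign, and Ccl28 (0.44 and 0.96) and Ccl6 (0.87 and 0.36) were below 2-fold in the genotype comparisons. Dim probe sets limit all values near or below the reading level. No paired analysis was possible because each group has 1 array.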
